A study of Mus musculus with 15 samples.

Results

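H3K27me3 in the liver of Uhrf1hepKO mice (KO) at baseline was set against H3K27me3 in regenerating wild-type (WT) liver, to ask whether promoters and regions that set the KO apart from WT at baseline were the ones that changed during regeneration. The mark was profiled by ChIP-seq in C57Bl/6 mice aged 8 to 12 weeks, and 6 of the 15 samples of the series are used here: 1 KO baseline library, 2 WT baseline libraries, and 3 libraries of regenerating WT liver taken at 30, 40 and 96 h. WT baseline replicate 2 was the 0 h point of the regeneration round, which the 30, 40 and 96 h libraries share. WT replicate 1 carries no time, and the labels of WT replicate 1 and KO name no round. Any difference of round thus cannot be told apart from other differences between KO and the regeneration libraries. Per its name, the KO removes Uhrf1 from hepatocytes, so the other cells of the liver keep the gene, and the island lists hold no measure of the deletion itself. The labels do not say how regeneration was started, nor whether the libraries came from separate animals or pools. Members were chosen by coordinates: of 20665 promoters of protein-coding genes on chromosomes 1 to 19, 287 were marked in both WT baseline libraries and unmarked in KO (called KO-lost), and 198 carried the mark in KO but in no WT baseline library (called KO-gained).

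H3K27me3 is deposited by Polycomb repressive complex 2 and lies over the promoters of genes that are held silent, above all CpG-rich promoters of developmental regulators. UHRF1 binds hemimethylated DNA behind the replication fork and brings in DNMT1, which copies DNA methylation to the new strand, so its loss lowers DNA methylation as cells divide. After part of the liver is lost, quiescent hepatocytes enter the cell cycle, replicate and then return to quiescence, and chromatin marks have to be copied or rebuilt on the way.

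The data are lists of islands, stretches of 1 kb windows in which the authors' caller found more ChIP than control reads. A promoter was the stretch 1 kb either side of an annotated start, or of the gene end carrying H3K4me3 where no start was at hand, and it was marked when it shared at least 1 bp with an island at a false discovery rate of 0.01 or below. Folds below are the authors' own ratios of ChIP over scaled control for a whole island and describe strength within a library. With 1 KO library and 1 library per time no test between groups was possible, so no p-values are given. Intervals are exact Clopper-Pearson 95% intervals over promoters, and they cover counting error only, since neighbouring genes can share an island.

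The KO list held 13006 islands over 499.7 Mb and marked 4902 promoters. The WT baseline lists held 10473 and 12146 islands and marked 4749 and 5880 promoters, and the lists at 30, 40 and 96 h held 11833, 12092 and 13942 islands and marked 3721, 3612 and 5267 promoters. In KO 21602917, in WT replicates 1 and 2 16372622 and 21724770, and at 30, 40 and 96 h 15161913, 12757716 and 21354795 ChIP reads lay in islands, and reads outside islands are not in the lists, so the full depth per library is unknown. The authors' median fold was 1.63 in KO, 1.62 and 1.58 in WT replicates 1 and 2, and 1.45, 1.45 and 1.56 at 30, 40 and 96 h, so the lists at 30 and 40 h had the weakest islands as well as the fewest marked promoters. None of the 54 hepatocyte genes measured, such as albumin and the apolipoproteins, was marked in any of the 6 libraries, and 0 of 27 housekeeping genes was marked in KO, in WT replicate 1, at 30 h or at 40 h, against 1 each in WT replicate 2 and at 96 h. In whole liver, a change of the mark within cells and a change in the mix of cells cannot be told apart.

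The base sequence before 5 of the members is shown because they stand for the patterns described below. Reln and Bmp4 were KO-lost, unmarked at 30 and 40 h and marked again at 96 h. Ppp1r9b was KO-lost and unmarked at all 3 times, Kif12 was KO-lost and marked at all 3 times, and Slc34a1 was KO-gained and marked at all 3 times. Each is the 250 bases before the start, 5′ to 3′ on the strand of the gene, from RefSeq on GRCm38.p6, with each CG dinucleotide, the site of DNA methylation, in capitals.
Reln, chr5:22344706-22344955, minus strand: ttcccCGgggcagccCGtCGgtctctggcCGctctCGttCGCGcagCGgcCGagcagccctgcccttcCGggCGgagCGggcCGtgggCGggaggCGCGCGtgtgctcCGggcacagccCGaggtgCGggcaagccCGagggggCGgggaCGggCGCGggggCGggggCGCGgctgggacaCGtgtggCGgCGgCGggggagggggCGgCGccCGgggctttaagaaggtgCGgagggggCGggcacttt
Bmp4, chr14:46390670-46390919, minus strand: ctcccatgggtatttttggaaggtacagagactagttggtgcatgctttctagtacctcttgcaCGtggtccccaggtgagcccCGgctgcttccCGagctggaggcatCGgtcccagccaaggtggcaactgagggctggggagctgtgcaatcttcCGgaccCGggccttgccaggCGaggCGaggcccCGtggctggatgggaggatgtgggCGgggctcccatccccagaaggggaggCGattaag
Ppp1r9b, chr11:94990962-94991211, plus strand: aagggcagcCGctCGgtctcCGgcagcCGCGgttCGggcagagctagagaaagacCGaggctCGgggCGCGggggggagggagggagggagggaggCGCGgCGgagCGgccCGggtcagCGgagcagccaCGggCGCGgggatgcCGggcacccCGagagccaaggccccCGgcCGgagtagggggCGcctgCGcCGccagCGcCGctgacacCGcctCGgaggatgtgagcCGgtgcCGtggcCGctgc
Kif12, chr4:63172132-63172381, minus strand: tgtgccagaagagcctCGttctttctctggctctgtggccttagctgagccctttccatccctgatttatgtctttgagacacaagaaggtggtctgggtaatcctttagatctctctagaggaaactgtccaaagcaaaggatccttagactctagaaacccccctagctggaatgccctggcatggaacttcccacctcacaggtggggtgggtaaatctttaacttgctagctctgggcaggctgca
Slc34a1, chr13:55399398-55399647, plus strand: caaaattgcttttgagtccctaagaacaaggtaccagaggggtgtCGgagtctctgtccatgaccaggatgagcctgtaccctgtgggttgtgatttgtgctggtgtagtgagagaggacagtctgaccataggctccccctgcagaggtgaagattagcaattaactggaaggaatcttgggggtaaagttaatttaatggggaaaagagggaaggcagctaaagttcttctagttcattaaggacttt
These stretches held 37 CG sites for Reln, 11 for Bmp4, 33 for Ppp1r9b, 1 for Kif12 and 1 for Slc34a1. Over the 300 bases given per promoter, the median of all 16457 promoters with a sequence was 15 CG sites, and 60.9% of them held 10 or more.

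Promoters that lacked the mark in KO lacked it more often in regenerating WT liver than promoters that KO had kept. Of the 4314 promoters marked in both WT baseline libraries, 287 (6.65%) were KO-lost and 4027 were KO-kept. At 30 h, 190 of the 287 KO-lost promoters were unmarked (66.2%, interval 60.4 to 71.7%), against 1130 of the 4027 KO-kept promoters (28.1%, 26.7 to 29.5%). At 40 h the shares were 202 of 287 (70.4%, 64.7 to 75.6%) and 1220 of 4027 (30.3%, 28.9 to 31.7%). At 96 h they were 81 of 287 (28.2%, 23.1 to 33.8%) and 186 of 4027 (4.62%, 3.99 to 5.31%). Over all 4314 promoters, the share without the mark was 30.6% at 30 h, 33% at 40 h and 6.19% at 96 h. The gap between KO-lost and KO-kept was therefore 38.1, 40.1 and 23.6 percentage points. Restricted to islands of at least 2-fold, the gap was 0.40 points at 30 h, 4.13 at 40 h and 17.3 at 96 h. At that limit 99.4% of KO-lost and 99.0% of KO-kept promoters were unmarked at 30 h, and 100 and 95.9% at 40 h. Nearly all promoters of both sets thus lacked such an island at 30 and 40 h, which left little room for a gap. The KO-lost set grew to 1389 promoters without WT replicate 1 and to 509 without WT replicate 2, and the 96 h gap to 50.4 and 36 points.

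**Figure D1:**
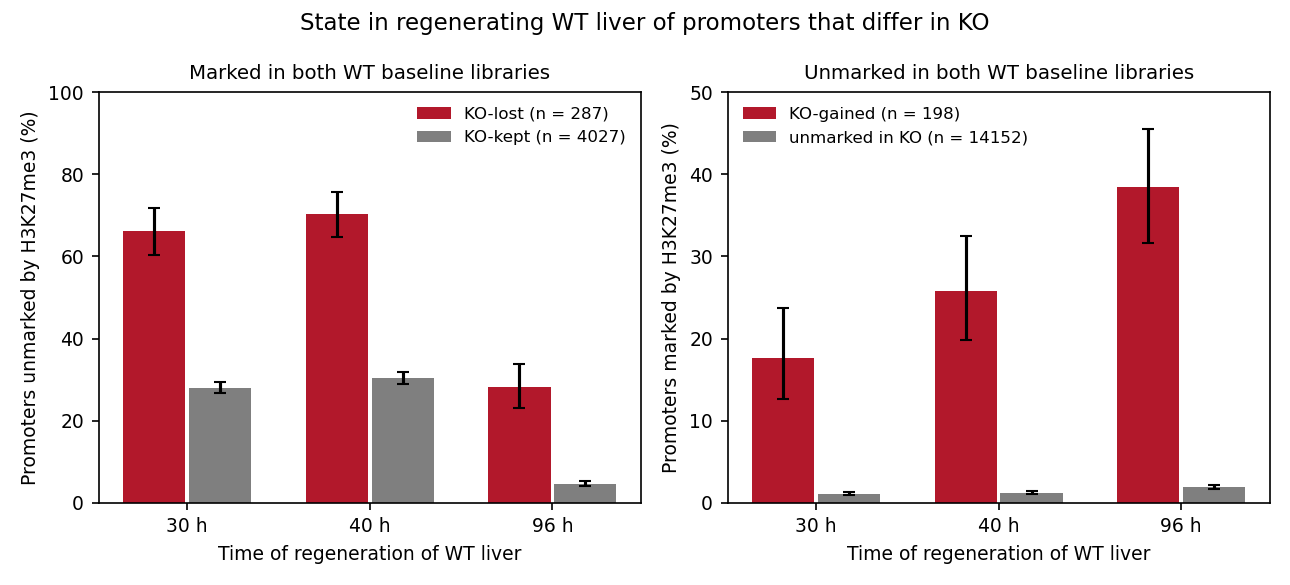
Share of promoters unmarked (left) or marked (right) by H3K27me3 at 30, 40 and 96 h of regeneration of WT liver, for promoters that differ in KO (red) and those that do not (grey). Bars are shares of promoters in 1 library per time and error bars are exact 95% intervals for counting error. KO-lost promoters stood at 66.2, 70.4 and 28.2% unmarked against 28.1, 30.3 and 4.62% of KO-kept promoters, and the y axes of the panels differ.

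The commonest course of a KO-lost promoter was absence of the mark at 30 and 40 h and its presence at 96 h. It was seen in 113 of 287 KO-lost promoters (39.4%, 33.7 to 45.3%) and in 575 of 4027 KO-kept promoters (14.3%, 13.2 to 15.4%). A further 49 KO-lost promoters (17.1%) were unmarked at all 3 times, against 64 KO-kept promoters (1.59%), and 43 KO-lost promoters (15.0%) were marked at all 3 times, against 2257 KO-kept ones (56.0%). The overlap was also read from the side of regeneration. Of the 688 promoters that were unmarked at 30 and 40 h and marked at 96 h, 113 (16.4%, 13.7 to 19.4%) were KO-lost. Of the 2300 that stayed marked, 43 (1.87%) were, beside 6.65% of all promoters marked in both WT libraries. Of the 113 promoters unmarked at all 3 times, 49 (43.4%, 34.1 to 53.0%) were KO-lost. Most promoters unmarked at 30 or 40 h kept the mark in KO, but the set sizes fix this. Only 287 promoters were KO-lost, against 1320 unmarked at 30 h and 1422 at 40 h. Both comparisons start from the same WT baseline libraries, so they are not independent.

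The single WT baseline libraries gave a measure of how far any missing mark goes with regeneration. A total of 464 promoters lacked the mark in WT replicate 1 while KO and WT replicate 2 carried it, and 213 lacked it in WT replicate 2 while KO and WT replicate 1 carried it. For KO the shares unmarked at 30, 40 and 96 h were 66.2, 70.4 and 28.2%. For the promoters that WT replicate 1 lacked they were 52.6% (47.9 to 57.2%), 60.1% (55.5 to 64.6%) and 40.1% (35.6 to 44.7%), and for those that WT replicate 2 lacked 59.6% (52.7 to 66.3%), 56.8% (49.9 to 63.6%) and 33.3% (27 to 40.1%). A large part of the gap at 30 and 40 h was thus also seen for promoters that only 1 WT library missed, and at 96 h the KO share was the lowest of the 3. Absence at both 30 and 40 h was seen in 56.4% of the KO-lost promoters, in 36% of those that WT replicate 1 lacked and in 42.3% of those that WT replicate 2 lacked. With 1 KO library, whether KO differs from a further WT library in these shares was not tested.

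**Figure D2:**
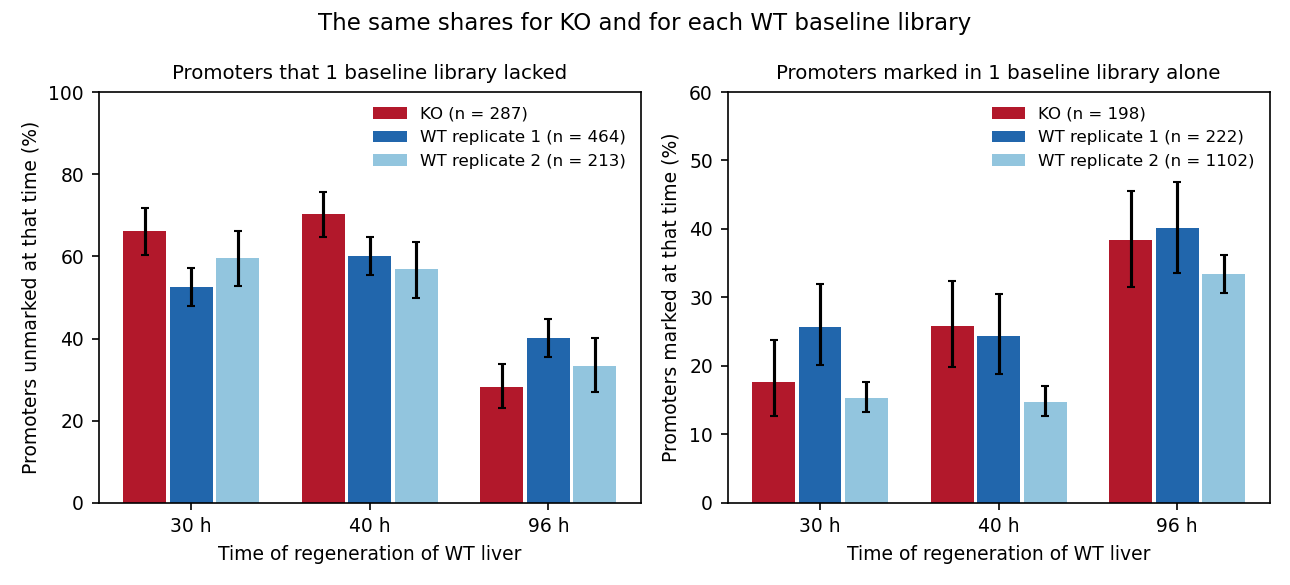
Left, share unmarked at each time of the promoters that 1 baseline library lacked while the other 2 carried the mark. Right, share marked at each time of the promoters marked in 1 baseline library alone. Red bars are KO, dark and light blue bars are WT replicates 1 and 2, error bars are exact 95% intervals for counting error, and the y axes of the panels differ. On the left KO stands at 66.2 and 70.4% at 30 and 40 h and the WT libraries between 52.6 and 60.1%, and on the right KO lies among the WT libraries at 96 h.

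The gap between KO-lost and KO-kept promoters was widest at 30 and 40 h where both WT baseline islands were strong. KO-lost promoters lay under somewhat weaker and shorter WT islands than KO-kept promoters, with a median lower WT fold of 1.63 against 1.74 and a median shorter WT island of 21 kb against 35 kb. The 4314 promoters were therefore divided into 4 equal groups (quartiles) of the lower of both WT folds. In the weakest quartile 71 of 124 KO-lost promoters (57.3%) and 273 of 955 KO-kept promoters (28.6%) were unmarked at 30 h. In the strongest quartile the counts were 54 of 61 (88.5%, 77.8 to 95.3%) and 363 of 1019 (35.6%, 32.7 to 38.7%), and at 40 h 56 of 61 (91.8%) and 344 of 1019 (33.8%). At 96 h the strongest quartile had 11 of 61 KO-lost promoters unmarked (18%) and 20 of 1019 KO-kept ones (1.96%). Among the strongest quartile of the promoters that each single library lacked, ranked by the lower fold of the other 2, 63 of 72 were unmarked at 30 h for KO (87.5%, 77.6 to 94.1%), 77 of 116 for WT replicate 1 (66.4%, 57.0 to 74.9%) and 43 of 54 for WT replicate 2 (79.6%, 66.5 to 89.4%). At 40 h the shares were 87.5, 75.9 and 68.5%, and at 96 h 18.1, 29.3 and 50%. These quartiles began at unlike folds, 1.88 for KO and 1.73 and 1.60 for WT replicates 1 and 2, so they do not hold promoters of equal strength.

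**Figure D3:**
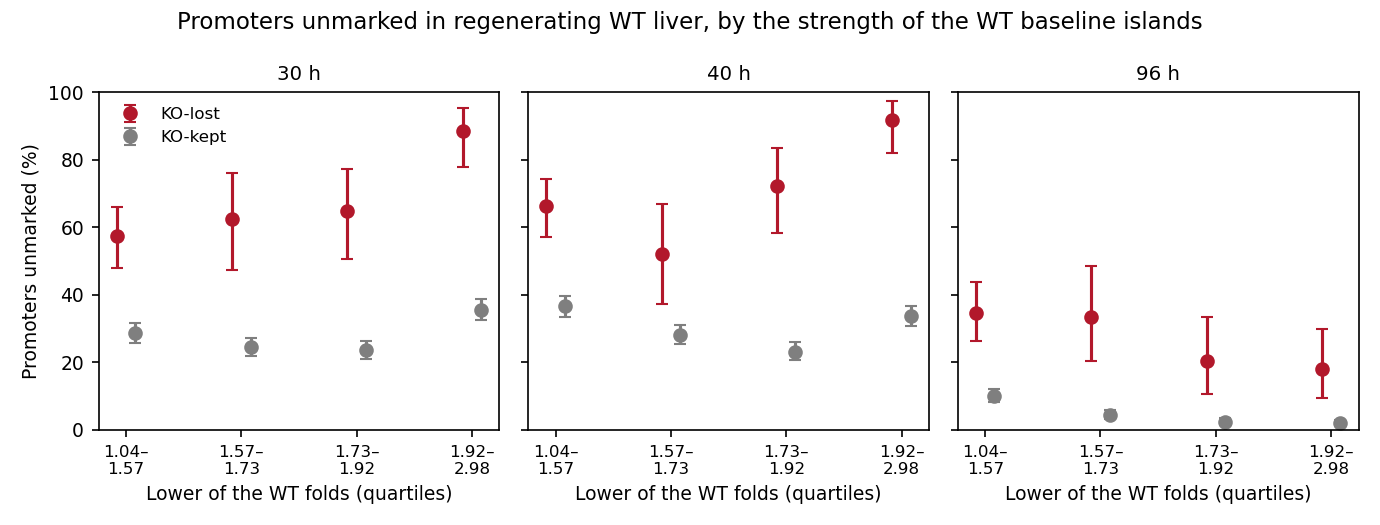
Share of promoters unmarked at 30, 40 and 96 h of WT regeneration (y axis) in quartiles of the lower of both WT baseline folds (x axis, weakest left). Red points are KO-lost and grey points KO-kept promoters, with exact 95% intervals for counting error. In the strongest quartile 88.5 and 91.8% of KO-lost promoters were unmarked at 30 and 40 h, against 35.6 and 33.8% of KO-kept promoters.

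Not every KO-lost promoter was far from a KO island. A KO island lay within 1 kb of the promoter window, the length of 1 caller window, in 64 of 287 cases (22.3%), while 175 promoters had no KO island within 5 kb and 80 had none within 50 kb. The shares unmarked at 30, 40 and 96 h were 73.8% (62.7 to 83.0%), 75% and 18.8% for these 80, and 76.6% (64.3 to 86.2%), 73.4% and 37.5% for the 64 next to a KO island. Between these they were 60.4% (45.3 to 74.2%), 64.6% and 35.4% for 48 promoters at 1 to 5 kb, and 55.8% (45.2 to 66.0%), 67.4% and 26.3% for 95 at 5 to 50 kb, so the share at 30 h did not follow the distance. The whole WT island had gone from KO at 96 of the 287 promoters, and at 191 a KO island remained elsewhere in it. Where the whole island had gone, 72.9% of promoters were unmarked at 30 h, 79.2% at 40 h and 22.9% at 96 h, against 62.8, 66.0 and 30.9% where part of it remained.

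Reln, Prom1, Bmp4 and Wnt5a were KO-lost with no KO island within 50 kb. Reln, which encodes the matrix protein reelin and marks hepatic stellate cells in liver, had no island in KO, folds of 1.80 and 2.38 in WT replicates 1 and 2, no island at 30 or 40 h, and a fold of 2.35 at 96 h. Its WT replicate 1 island spanned chr5:22340001-22350000 across the start, with 388 ChIP and 375 control reads, and the nearest KO island was 394296 bp away. Prom1, the stem-cell and bile-duct surface protein CD133, was likewise without an island in KO, with folds of 2.34 and 2.14 in the WT baseline libraries, none at 30 and 40 h, and 2.32 at 96 h. For Bmp4, a secreted growth factor of the TGF-beta family, the island was missing in KO, had folds of 1.81 and 1.53 in the WT baseline libraries, was missing at 30 and 40 h, and had a fold of 2.21 at 96 h. Wnt5a, a Wnt ligand of the non-canonical branch, followed the same course with weaker islands, at folds of 1.47 and 1.69 in WT at baseline and 1.5 at 96 h, its start being taken from the gene end with H3K4me3. The nearest KO island was 166265 bp from Prom1, 68332 bp from Bmp4 and 294543 bp from Wnt5a.

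The strongest promoters of the same course were ranked by the lower WT fold. Ccdc106 had no island in KO, folds of 2.55 and 3.28 in WT at baseline, none at 30 and 40 h and 2.21 at 96 h, and its island also covered the zinc finger gene Zfp580. Fbll1, a gene related to fibrillarin, had folds of 2.47 and 2.49 in WT at baseline and 2.60 at 96 h, and C2cd4a had 2.31 and 2.47 at baseline and 2.41 at 96 h, both with no island in KO or at 30 and 40 h. The nearest KO island lay 70849, 105884 and 21330 bp from these promoters. For others of the 10 highest, a KO island lay close to the window. Ckm, muscle creatine kinase, had a KO island 907 bp from its window, although the islands nearest to it at 30 and 40 h were 530094 and 232094 bp away. Pou3f3, a neural transcription factor, Ccno, a cyclin of multiciliated cells, and Kcna7, a voltage-gated potassium channel, had KO islands at 768, 802 and 41 bp, and for Ccno and Kcna7 the nearest 40 h island lay at the same distance as the KO island.

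The Polycomb genes were few and lay near such edges. Of 33 measured, 7 were marked in both WT libraries, of which 2 were KO-lost, 6 were unmarked at 30 h, 6 at 40 h and 0 at 96 h, beside 6.65% KO-lost and 30.6, 33 and 6.19% unmarked over all promoters marked in both WT libraries. The KO-lost ones were Bmi1 and Cbx7, both subunits of Polycomb repressive complex 1. Bmi1 had no island over its window in KO, folds of 2.20 and 2.08 in WT at baseline, none at 30 and 40 h and 3.28 at 96 h, but its WT islands began at chr2:18678001, only just inside the window, and the nearest KO and 40 h islands lay 983 bp from it. Cbx7 had folds of 2.11 and 1.54 in WT at baseline and 3.32 at 96 h, and its nearest KO island was 355 bp away. Ccnd2, cyclin D2 of the G1 phase, was the 1 KO-lost promoter of 4 marked among 55 cell cycle and replication genes, with a KO island at 2813 bp and folds of 1.80 and 1.78 in WT at baseline and 2.12 at 96 h.

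KO-lost promoters that stayed unmarked through 96 h included Ppp1r9b, which encodes the scaffold protein spinophilin. It had no island in KO, folds of 1.97 and 1.94 in WT at baseline, and none at 30, 40 or 96 h, and its nearest KO and 96 h islands lay 12212 and 14789 bp away. St8sia4, a polysialic acid synthase, had folds of 2.08 and 2.31 in WT and none elsewhere, with the nearest KO island 356594 bp away. Rnf145, an endoplasmic reticulum ubiquitin ligase, had the strongest WT folds of this class, 3.02 and 2.75, and its nearest island lay 956 bp from the window both in KO and at 96 h. Gbf1, an activator of small GTPases of the Golgi, also had its nearest island at 1 distance in KO and at 96 h, 558 bp, against WT folds of 2.62 and 2.35. Its WT islands ended at chr19:46152000, short of the start at 46152558. For both genes the folds thus describe islands that reach the window but not the start.

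A further class was KO-lost and marked at every time of regeneration, so that by definition KO stood apart from all WT libraries. Part of it lay in clusters of predicted genes on chromosome 14, where the state of single genes is uncertain. Examples are 3 promoters on chr14:3116001-3286000 and 3 on chr14:4612001-5296000, with lower WT folds of 1.2 and 1.07. The promoters named here lie outside these clusters. Fcgr3, an Fc receptor of macrophages and natural killer cells, had no KO island, folds of 2.77 and 3.58 in WT at baseline, and folds of 1.72, 1.99 and 1.52 at 30, 40 and 96 h. Hsd3b6, a steroid dehydrogenase, had 2.27 and 2.37 at baseline and 1.39, 1.46 and 2.36 at these times. Sox10, a neural crest regulator, had 2.21 and 1.89 at baseline and 1.62, 1.62 and 1.81 later. It was read at both gene ends: KO had an island at neither, WT replicate 2 at both, and the other WT libraries at the same single end. Negr1, a neuronal adhesion molecule, had 2.13 and 1.88 at baseline and 1.61, 1.47 and 1.62 later. Kif12, a kinesin, had 1.83 and 1.86 at baseline and 1.46, 1.46 and 1.77 later. The nearest KO island lay 613207 bp from Negr1, 216870 bp from Kif12 and 45511 bp from Sox10, but 2598 bp from Fcgr3.

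**Figure D4:**
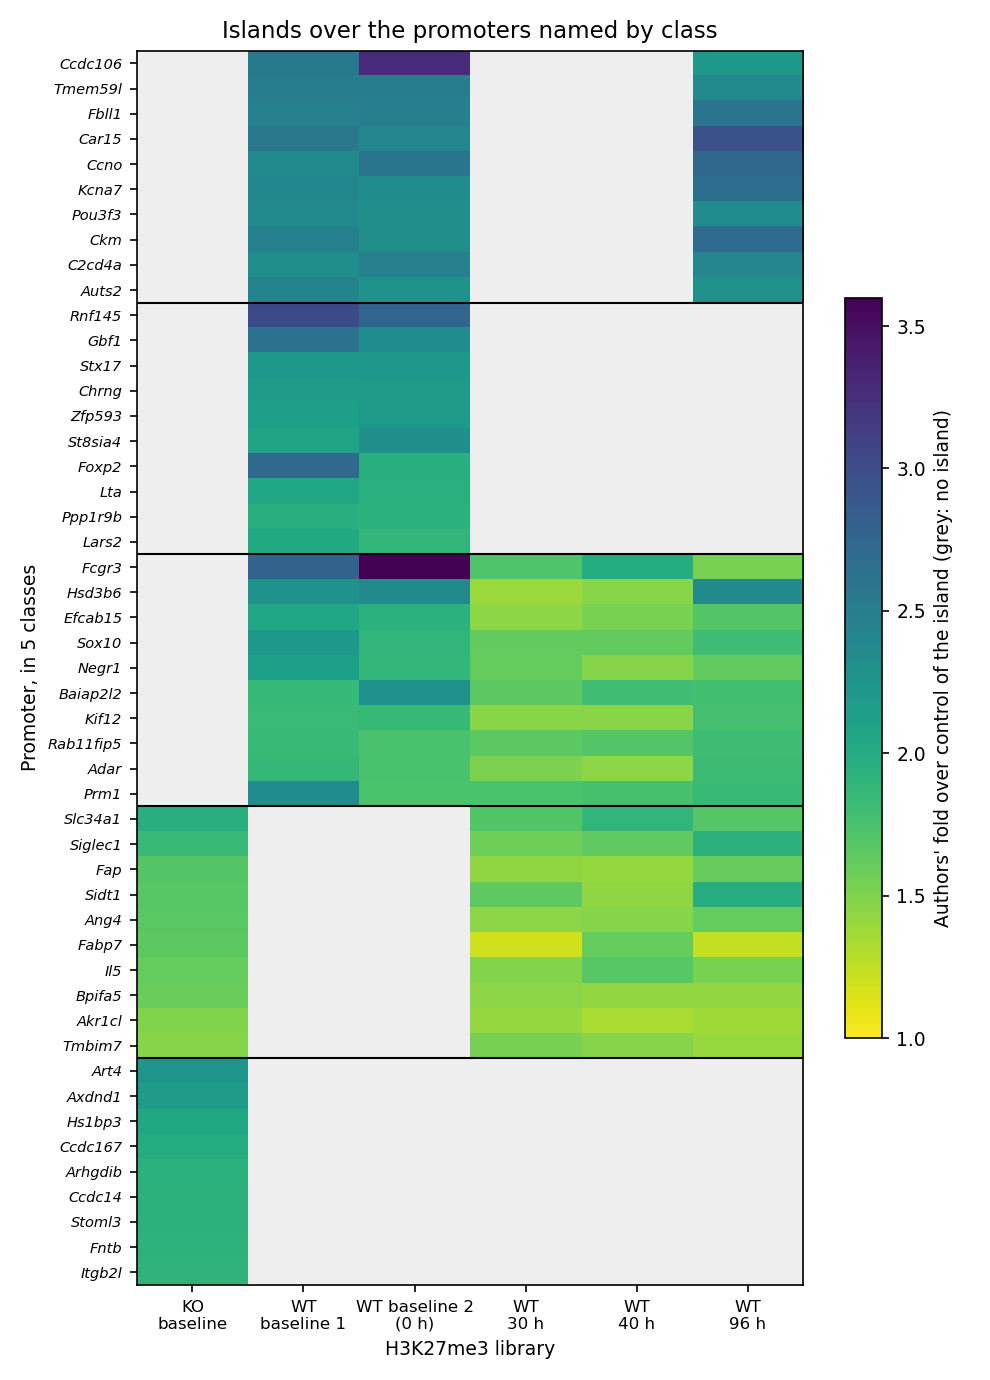
Authors' fold of the island over each promoter (colour, grey for no island) in the KO library, the WT baseline libraries and WT at 30, 40 and 96 h, for 5 classes of promoters set apart by black lines, of which the first 4 have 10 and the last has 9. From the top the classes are KO-lost with the mark back at 96 h, KO-lost and unmarked at all times, KO-lost and marked at all times, KO-gained and marked at all times, and KO-gained and marked at no time. Within each class promoters run down by fold, such as 2.55 and 3.28 in WT for Ccdc106 at the top, and the grey cells are set by the class.

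Promoters gained in KO were more often marked during regeneration than other promoters, and the share was highest at 96 h. Of 14350 promoters unmarked in both WT baseline libraries, 198 (1.38%) were KO-gained. Of these, 35 (17.7%, 12.6 to 23.7%) were marked at 30 h, 51 (25.8%, 19.8 to 32.4%) at 40 h and 76 (38.4%, 31.6 to 45.5%) at 96 h, against 1.13, 1.24 and 1.89% of the 14152 promoters unmarked in KO too. The sets differed in kind: in the WT libraries of the active mark H3K4me3, 32.8 and 27.8% of KO-gained promoters carried it, against 74.1 and 71.6% of the 14152. The part of this in the shares was not tested. Over all 14350 promoters 1.36% were marked by H3K27me3 at 30 h, 1.57% at 40 h and 2.39% at 96 h. The differences between KO-gained promoters and the 14152 were 16.5, 24.5 and 36.5 percentage points. Restricted to islands of at least 2-fold they were 0.73, 0.32 and 21.0 points. At that limit only 0.77% of KO-gained and 0.04% of the comparison promoters were marked at 30 h, and 0.38 and 0.06% at 40 h, which left little room for a difference. Without WT replicate 1 there were 411 KO-gained promoters and differences of 27.9, 33.2 and 50.6 points, and without WT replicate 2 there were 662 and differences of 36.4, 33.4 and 49.3 points. Most often a KO-gained promoter was marked at no time (88 of 198, 44.4%), and 13 (6.57%) were marked at all 3. Of the 155 with a sequence, 37 held 10 or more CG sites, and 0, 5 and 14 of these were marked at 30, 40 and 96 h. For the 60 with 3 or fewer the counts were 14, 12 and 24, and for the 58 with 4 to 9 they were 14, 18 and 23. All 30 h marks among those with a sequence thus lay at promoters with fewer than 10 CG sites. Of the 198, 28 had no single start and were read at both gene ends, and at 23 of these the KO island lay at 1 end only, while of the 287 KO-lost promoters 26 were read so. The 13 marked at all times were 50% (29.9 to 70.1%) of the 26 promoters that gained the mark at all 3 times. Among the 13 was Pcdha12, read at both gene ends. Its KO and 40 h islands lay at 1 end and its 30 and 96 h islands at the other, so they do not match by coordinate at 30 and 96 h.

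Similar shares were seen between WT libraries. Of the 222 promoters marked in WT replicate 1 alone, 25.7, 24.3 and 40.1% were marked at 30, 40 and 96 h, and of the 1102 marked in WT replicate 2 alone, 15.3, 14.8 and 33.4% were. The KO shares lay between these at 30 and 96 h, and at 40 h the KO share of 25.8% exceeded the higher WT share by less than its own interval. KO-gained promoters had weak islands, with a median KO fold of 1.55 against 1.84 at KO-kept promoters and a median KO island of 21 kb against 46 kb, and 142 of the 198 had no WT island within 5 kb.

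Slc34a1, the sodium phosphate cotransporter of the kidney, headed the promoters gained in KO and marked at every time. Its folds were 1.96 in KO and 1.71, 1.89 and 1.69 at 30, 40 and 96 h, with no island over the window in WT at baseline, although a WT replicate 2 island lay 353 bp from it. The KO island spanned chr13:55398001-55410000 with 506 ChIP and 402 control reads. Siglec1, a sialic acid receptor of macrophages, had 1.85 in KO and 1.57, 1.63 and 1.93 at the 3 times. Its start was taken from the gene end with H3K4me3, and islands of WT replicates 1 and 2 lay 3778 and 1778 bp from its window. Fap, a protease of activated fibroblasts, had 1.70 in KO and then 1.43, 1.41 and 1.60. Fap was read at both gene ends, and all 4 of its islands lay at the same end, so they are not shown to lie at its start. Il5, the eosinophil cytokine interleukin 5, had 1.61 and then 1.48, 1.68 and 1.52, with the nearest WT baseline island 73794 bp away.

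Gains that no time shared included Art4, the Dombrock blood group protein, with a fold of 2.23 in KO and the nearest WT baseline island 54600 bp away. Fntb, the farnesyltransferase beta subunit, had 1.92 in KO with a WT replicate 2 island 467 bp away. Among the lists, Dcn and Col3a1, matrix genes of fibroblasts, had 1.55 and 1.33 in KO only, and the imprinted retrotransposon-derived Rtl1 had 1.81 in KO only, at 1 of the 2 gene ends read. Gzma, a granzyme of killer lymphocytes, and Clec4g, a lectin of liver endothelium, had 1.81 and 1.57 in KO and 1.38 and 1.45 at 96 h. Ptprc, the pan-leukocyte CD45 gene, and Tek, an endothelial receptor, had 1.59 and 1.37 in KO and no island in any WT library.

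At developmental regulators the 30 and 40 h libraries stood apart from the KO, WT baseline and 96 h libraries alike. The 30 and 40 h lists also had the weakest islands and the fewest marked promoters. Of 132 developmental transcription factor genes outside Hox, 121 were marked in KO and 122 and 125 in WT replicates 1 and 2. At 30, 40 and 96 h, 69, 80 and 126 of them were marked. The 39 Hox genes, regulators of position along the embryo, were all marked in KO and in both WT baseline libraries, while 12 were marked at 30 h, 21 at 40 h and all 39 at 96 h. Together with the other developmental transcription factor genes, 161 were marked in both WT libraries, and of these KO lacked 1 (0.621%, 0.0157 to 3.41%), which was Sox10, read at both gene ends. At 30 h 80 of the 161 were unmarked (49.7%, 41.7 to 57.7%), at 40 h 60 (37.3%, 29.8 to 45.2%) and at 96 h 0, which allows a share of up to 2.27% by the same interval. Among the other 4153 promoters marked in both WT libraries, KO lacked 6.89%, and 29.9, 32.8 and 6.43% were unmarked at 30, 40 and 96 h. KO and the 96 h library thus held fewer absences at developmental regulators than elsewhere, and the 30 h library more, on the same promoters.

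**Figure D5:**
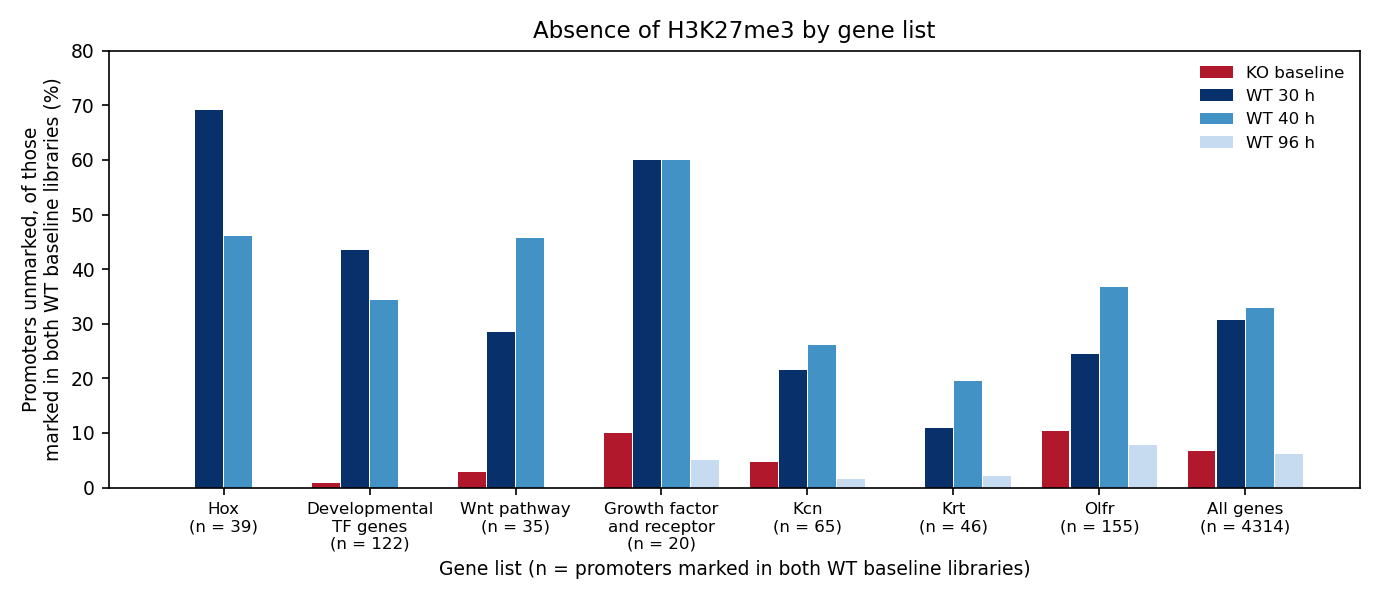
Share of the promoters marked in both WT baseline libraries that were unmarked in KO (red) and at 30, 40 and 96 h of WT regeneration (dark to light blue), for 7 gene lists and for all genes. Missing bars are 0. Hox genes stand at 0 in KO with 27 and 18 of 39 unmarked at 30 and 40 h, and all genes at 6.65% in KO.

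Other lists held few KO-lost members. Their counts stand beside 6.65% KO-lost, 1.38% KO-gained, and 30.6, 33 and 6.19% unmarked at 30, 40 and 96 h over all promoters. Among 50 Wnt pathway genes, 35 were marked in both WT libraries, of which 1 was KO-lost and 10, 16 and 0 were unmarked at these times. Growth factor, receptor and cytokine genes of regeneration had 20 such promoters, of which 2 were KO-lost (Bmp4 and Flt1, a VEGF receptor with a KO island 11 bp from its window) and 12, 12 and 1 were unmarked. All 4 marked immediate early genes were kept in KO and unmarked at 30 and 40 h. Keratin genes had 46 marked promoters, with 0 KO-lost and 5, 9 and 1 unmarked at the 3 times. Of 13 marked germline genes 2 were KO-lost, Dmc1, a meiotic recombinase, and Tex19.2, and 2, 4 and 1 were unmarked at the 3 times. Olfactory receptor (Olfr) genes had 155 marked promoters, with 16 KO-lost (10.3%) on 13 islands and 38, 57 and 12 unmarked, and 9 of 869 unmarked ones were KO-gained (1.04%).

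Markers of other liver cell types were read in the same way. Of the markers marked in both WT libraries, KO lacked 1 of 10 for bile duct (Prom1), 0 of 5 for endothelium, 1 of 11 for stellate cells and fibroblasts (Reln), 0 of 11 for macrophages and 0 of 5 for lymphocytes. KO gained 2 of 11 endothelial, 2 of 6 stellate and fibroblast and 2 of 6 lymphocyte markers unmarked in both WT libraries, and 0 of 6 bile duct and 0 of 4 macrophage markers. Over all promoters, KO lacked 6.65% of those marked in both WT libraries and gained 1.38% of those unmarked in both. Each list had 18 measured genes. For endothelium 9 were marked in KO, 5 and 7 in the WT baseline libraries, and 4, 5 and 7 at 30, 40 and 96 h. Lymphocyte markers stood at 9 in KO, 7 and 10 in WT at baseline, and 6, 5 and 7 at these times, and stellate and fibroblast markers at 12 in KO, 11 and 12 at baseline, and 7, 7 and 12 later. Bile duct markers stood at 10 in KO, 10 and 12 in WT at baseline, and 5, 7 and 12 later, and macrophage markers at 12 in KO, 11 and 14 at baseline, and 11, 10 and 11 later. The part of cell mix in the KO differences was not tested.

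Of the 287 KO-lost promoters, 230 had a sequence (80.1%). Those with 10 or more CG sites in the 300 bases were unmarked at 30 h in 101 of 126 cases (80.2%), and those with 3 or fewer in 29 of 66 (43.9%). At 40 h the shares were 78.6 and 51.5%, and at 96 h 24.6 and 36.4%. KO-kept promoters showed the same direction: among the 3080 with a sequence, 31.9% of those with 10 or more CG sites and 19.7% of those with 3 or fewer were unmarked at 30 h, 33.3 and 25.5% at 40 h, and 2.29 and 8.48% at 96 h. Among promoters with a sequence, the same order by CpG content was thus seen within each of these 2 sets. A check of CpG content between the sets is void by the minimum of 80% with a sequence used here, since 76.5% of KO-kept and 78.3% of KO-gained promoters had one. The active mark H3K4me3 lay at 50.9 and 48.1% of KO-lost promoters in the 2 KO libraries and at 52.6 and 42.5% in the 2 WT libraries, and at 43.8 and 34.6% of KO-kept promoters in KO and 46.3 and 27% in WT. KO-lost promoters thus carried H3K4me3 about as often in KO as in WT, within the spread between replicates. The second H3K4me3 library of each genotype carries an antibody tag naming H3K9me3 and was grouped by its title.

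KO-lost promoters were spread over all 19 autosomes, with chromosome 14 highest at 34 of 221 promoters (15.4%), beside 6.65% over all chromosomes. On it 18 of the 34 lay in 5 islands with 3 or more each, all of predicted genes in clusters, such as 4 over chr14:5659001-7352000 and 5 over chr14:43217001-43420000. Such clusters can hold near-identical copies that share reads, so the state of single genes there is uncertain. The 5 of the second cluster were unmarked at all 3 times, and those of the first were marked at all 3 with 1 exception at 30 h. The only island counted for 3 or more KO-gained promoters lay on chromosome 18 at the gene end that 5 protocadherin alpha genes share. None of the 5 has an annotated start in the table, both gene ends were read, and KO had no island at the other end of any of them, so 1 island makes up these 5 of the 198 gains. At that shared end the 40 h library had an island and the 30 and 96 h libraries had none.

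Counted by length in 1 kb windows, the relation had the same direction. Islands of both WT libraries and not of KO covered 24.1 Mb, and 51.6, 58.7 and 40.6% of that length was outside islands at 30, 40 and 96 h, against 22.1, 29.4 and 10.5% of the 304 Mb that KO shared. Of the 89.5 Mb in WT replicate 1 and not in WT replicate 2, 58.7, 63.4 and 46.2% was outside islands at the 3 times, and of the 154.6 Mb in WT replicate 2 and not in WT replicate 1, 60.3, 68.1 and 63.4%. These WT lengths were taken whether or not KO held them, while the 24.1 Mb that KO lacked lay in both WT libraries. The sets are thus unlike, and their shares do not rank KO against a WT library. The 69.3 Mb in KO and neither WT library was inside islands for 29.9, 26.5 and 34.2%, against 2.76, 2.95 and 2.43% of the length outside all baseline lists.

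Whole islands could be compared for losses, but the sets differed in length. Of WT baseline islands merged from both libraries, 250 had no KO island, with a median length of 26000 bp, and 46.4, 39.2 and 79.6% of these touched an island at 30, 40 and 96 h. The 6989 with a KO island had a median length of 45000 bp, and 84.8, 81.3 and 96.5% of these did. KO had 1604 islands (12.3% of its list, 31.7 Mb) that touched no WT baseline island, with a median length of 18000 bp, and 29.8, 30.4 and 41.8% of these touched an island at the 3 times. The KO islands that touched a WT baseline island had a median length of 28000 bp, and 76.2, 71.1 and 87.5% of these did. Among islands longer than 10000 bp and up to 20000 bp, 28.8% of the KO-only islands and 59.4% of those over a WT island touched an island at 30 h, and over 20000 bp 31.7 and 85.2% did.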

How the data were processed

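H3K27me3 was measured by ChIP-seq in 6 liver libraries. The submitters' processing notes name SICER, Picard, BWA, Trimmomatic and FastQC 0.11.5 as the authors' tools, and GRCm38.p4 and mm10 as builds. Islands were called per library, and the deposited lists, with windows of 1000 bp and gaps of 4 kb per their names, give raw ChIP and control read counts, a p-value, a fold ratio over scaled control and a false discovery rate (q-value) by the authors. Islands with identical bounds had equal control counts in KO and WT replicate 1 (411 of 411), and in the 30 and 40 h lists (243 of 243), but in 1 of 128 between 0 and 30 h, so those lists share a control within each set. The ChIP to control scale was 0.642 in KO, 0.576 and 0.447 in WT replicates 1 and 2, and 0.369, 0.342 and 0.438 at 30, 40 and 96 h. H3K4me3 peaks, with the authors' score, fold and −log10 p-value and q-value deposited, were used only for presence.

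Islands at a false discovery rate of 0.01 or below on chromosomes 1 to 19 were used. Starts came from a RefSeq promoter table (GRCm38.p6) for 16457 of 20665 genes. The gene end with more H3K4me3 served for 2753, and both ends for 1455. Named were the 10 promoters with the highest fold per class, 1 per island, and up to 5 KO-lost and KO-gained members per list, without symbols starting with Gm or LOC or ending in Rik. Not all are printed, 1 promoter is not reported here, and the 5 sequences and the distances to islands were chosen after values were seen. Members, lists and rules were chosen with earlier results of these data known. Overlap code was tested on simulated data. Intervals used scipy 1.17.1, under Python 3.11.15 with pandas 2.3.3 and numpy 2.4.6, and figures matplotlib 3.10.9. Alternatives were 9 planned changes of filter, window, margin or WT library, and 1 added after seeing the data (annotated starts only).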

Additional observations from a re-analysis of the deposited data

How the results depend on the processing

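The 8 results were the 2 counts and the gap at each of the 3 times for losses and for gains. No alternative turned round the sign of any gap, while the counts cannot change sign. Of 80 values, 53 stayed within the counting interval or, for the counts, within 1.5 times of the value reported. Requiring a fold of 2 or more gave 170 KO-lost promoters, gaps of 0.40, 4.13 and 17.3 points for losses and of 0.73, 0.32 and 21.0 points for gains at 30, 40 and 96 h. At that limit the 30 and 40 h lists left nearly all promoters of both sets unmarked, so the gaps at these times cannot show whether the relation holds for strong islands. Without the false discovery rate filter the loss gaps at 30 and 40 h were 31.5 and 33.3 points. At equal covered length the gain gaps at 30 and 96 h were 24.3 and 29.5 points. An absence margin of 5 kb left 175 KO-lost promoters and a loss gap of 15.3 points at 96 h. The causes of these shifts were not tested. Leaving out 1 WT baseline library gave 509 to 1389 KO-lost and 411 to 662 KO-gained promoters, loss gaps of 40.1 to 50.3, 41.1 to 48.8 and 36 to 50.4 points, and gain gaps of 27.9 to 36.4, 33.2 to 33.4 and 49.3 to 50.6 points at 30, 40 and 96 h. The 1389 came without WT replicate 1 and the 662 without WT replicate 2. Annotated starts only, added after seeing the data, moved none of the 8. The 30 and 40 h lists held the fewest reads in islands and the weakest islands, and the part of depth in their calls was not tested. No paired analysis was possible because KO has 1 library and each time has 1.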
